A study of Mus musculus with 7 samples.

Results

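Mammary tumors from BRCA1-null mice were compared with PyMT tumors by summing the single-cell counts of each tumor and testing every gene between the 2 kinds of tumor. The comparison used 4 of the 7 libraries of the series, 2 from BRCA1-null and 2 from PyMT tumors, each made from a separate tumor. Cells with at least 1000 UMIs, at least 500 genes and under 20% of UMIs from mitochondrial genes were kept, which left 6112 of 7275 barcodes, 2323 from BRCA1-null and 3789 from PyMT tumors. A UMI (unique molecular identifier) marks a captured transcript, so that its copies are counted once. All mice were adults of the FVB/NJ strain, and no tumor was treated. BRCA1-null tumors arose spontaneously in mice with Brca1 F/F and Trp53 F/F alleles and a K14-Cre transgene, in which the Krt14 promoter drives the recombinase in basal cells and deletes both floxed genes. For both PyMT tumors, cells of the single line FF99WT were transplanted. The line was derived from a tumor of an MMTV-PyMT mouse that also had FIP200 floxed alleles but no Cre, and the MMTV promoter drives the oncogene mainly in luminal cells. The tumor types therefore differ in the driver, in transplant origin and in the number of source tumors, and these cannot be told apart. By the methods of the study, cells positive for CD24 and negative for CD31, CD45 and Ter119 were sorted, a gate against endothelial, white blood and red blood cells, and the labels state it for the A libraries.

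The mammary epithelium has an inner luminal layer, which lines the ducts and makes milk, and an outer basal layer of contractile myoepithelial cells. Luminal cells express keratins 8 and 18, E-cadherin and tight junction proteins, whereas basal cells express keratins 5 and 14, the transcription factor p63 and smooth muscle actin. In an epithelial-mesenchymal transition (EMT), factors of the Zeb, Snail and Twist families repress epithelial adhesion genes, and cells gain vimentin and matrix proteins. BRCA1 acts in the repair of double-strand breaks by homologous recombination, and p53 halts the cell cycle after damage. The polyoma middle T antigen (PyMT) engages kinases of the Src, phosphatidylinositol 3-kinase and Ras pathways.

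Kept cells held 5578911 and 29522988 UMIs in BRCA1-null replicates A and B and 18119851 and 37693300 UMIs in PyMT replicates A and B, from 245, 2078, 1947 and 1842 cells. BRCA1-null replicate A stood apart from the other libraries before any comparison. With every cell thinned to 3000 UMIs, 23.9% of its cells had at least 2 of the 4 epithelial markers Epcam, Krt8, Krt18 and Cdh1, against 72.3% in BRCA1-null replicate B and 99.9% in both PyMT libraries. Fibroblast markers moved with the tumor type. All 10 of them summed to 140 and 428 CPM in BRCA1-null replicates A and B and to 1.76 and 7.63 CPM in PyMT replicates A and B. Pericyte markers summed to 18.7 and 168 CPM against 13.6 and 11.5 CPM. Of these sums, Notch3 made up 2.06 and 15.9 CPM in BRCA1-null and 12.8 and 9.66 CPM in PyMT tumors. CPM are UMI counts divided by the sum of the library after TMM scaling, the unit used for all levels here, and are compared between libraries and not between genes. Summed markers of immune cells ranged from 59.8 to 116 CPM, of endothelial cells from 10.3 to 38.4 CPM, of erythroid cells from 0.126 to 0.658 CPM and of adipocytes from 0 to 0.934 CPM over the 4 libraries. S100a8 made up most of the immune sum in PyMT tumors (59.7 of 71.4 and 47.7 of 59.8 CPM). In BRCA1-null tumors it made up 1.91 of 61.8 and 7.12 of 116 CPM. Flt1 made up most of the endothelial sum in PyMT tumors (25.3 of 27.3 and 9.48 of 10.3 CPM). Of 5 endothelial markers tested, Cdh5 (6.18 and 0.709 CPM, with no UMI in PyMT) and Kdr (2.06 and 1.10 CPM against 0.0629 and 0.120 CPM) were higher in BRCA1-null tumors. Summed counts cannot tell fewer cells of a type from less RNA per cell. Between any 2 of the 4 libraries 29 barcode sequences were shared, and Scrublet called 38 cells doublets, 16 of them in BRCA1-null replicate A.

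The genes that the models alter come first. Trp53 (ENSMUSG00000059552, chromosome 11 of GRCm38 from 69580359 to 69591873) was at 32.1 and 23.9 CPM in the BRCA1-null libraries and at 104 and 93.8 CPM in the PyMT libraries. It was lower in BRCA1-null tumors by edgeR's quasi-likelihood test (log2 fold change -1.82, standard error 0.32, adjusted p = 0.0246). Brca1 (chromosome 11 from 101488764 to 101551955) was low in all 4 libraries, at 7.95 and 2.67 CPM in BRCA1-null and 0.315 and 1.53 CPM in PyMT tumors, and was not called (adjusted p = 0.132). Reads of this chemistry come from the 3' end of a transcript, so a deletion of inner exons need not remove them, and neither gene checks the genotype. Rb1cc1, which encodes FIP200 and is floxed but intact in the PyMT line, was at 28.1 and 57.9 CPM against 46.9 and 67.5 CPM (adjusted p = 0.566). Cd24a, the antigen used for sorting, was at 346 and 375 CPM against 672 and 691 CPM (adjusted p = 0.0845). Pecam1, which encodes the CD31 of the depletion, reached at most 10.7 CPM in any library, and Ptprc, which encodes CD45, at most 0.805 CPM.

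Of 13432 genes tested, 1546 were higher in BRCA1-null tumors (11.5%) and 648 were lower (4.82%) at an adjusted p under 0.05. The largest increases among well expressed genes were in a D-type cyclin, in basement membrane and other matrix genes, in a binding protein of insulin-like growth factors and in smooth muscle actin. The largest decreases were in genes of milk, of innate defense and of the tissue kallikreins. Ccnd2 (cyclin D2, which drives cells from G1 into S phase; ENSMUSG00000000184, chromosome 6 from 127125162 to 127152193) was at 316 and 261 CPM in BRCA1-null replicates A and B and at 0.818 and 0.778 CPM in PyMT replicates A and B. Replicates lay close together and the tumor types far apart (log2 fold change 8.49, standard error 0.41, adjusted p = 0.00699). At 3000 UMIs per cell, 52.3% and 39.5% of BRCA1-null cells had a Ccnd2 UMI, compared with 0.162% and 0.223% of PyMT cells. Igfbp2, which binds insulin-like growth factors, was at 311 and 369 CPM against 1.95 and 0.987 CPM (log2 fold change 7.88). Rcn3, a calcium-binding protein of the endoplasmic reticulum, Fbln1, a fibulin of the matrix, and Ppic, a cyclophilin, also rose, with log2 fold changes of 8.33, 8.22 and 7.48. The change of Ppic is the least certain, with a standard error of 1.32 beside 0.49 for Rcn3 and 0.67 for Fbln1. It had 0 and 35 UMIs in PyMT replicates A and B.

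Among decreases, Csn3 (kappa-casein, which holds casein micelles in solution; ENSMUSG00000001622, chromosome 5 from 87925579 to 87932665) was at 394 and 454 CPM in BRCA1-null and at 19853 and 21289 CPM in PyMT tumors. The change was -5.60 on the log2 scale (standard error 0.38, adjusted p = 0.00699). Csf3, the growth factor of granulocytes, was at 20.2 and 21.4 CPM against 2427 and 433 CPM (log2 fold change -6.10, adjusted p = 0.0192). PyMT replicate A was thus well above replicate B for Csf3. Lack of overlap with the BRCA1-null libraries was part of a rule that named this gene, so it is no support. Tspan8, a tetraspanin of epithelial membranes, was at 7.51 and 11.02 CPM against 342 and 353 CPM, and Car2, a cytosolic carbonic anhydrase, at 21.3 and 36.6 CPM against 1128 and 834 CPM. The long noncoding RNA Wincr1 (log2 fold change -6.13) and the amino acid oxidase gene Lao1 (-6.08) fell as well.

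The calls depended on having both PyMT libraries. With either of them left out, the spread between replicates came from the BRCA1-null pair alone. Without PyMT replicate A no gene passed (edgeR; 1945 higher and 783 lower at an unadjusted p under 0.05, smallest adjusted p 0.0554), and without PyMT replicate B 60 genes were higher and 18 lower, while all 1546 and 648 genes kept their direction without replicate A. These limits hold for every call given here. Without BRCA1-null replicate A, 2071 genes were higher and 948 lower, and 1367 of the 1546 and 621 of the 648 were called again. Without BRCA1-null replicate B 1065 and 601 of them were, and with the libraries thinned to the smallest total 972 and 481. The count of each list below is to be read against the 11.5% of all genes called higher and the 4.82% called lower.

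**Figure D1:**
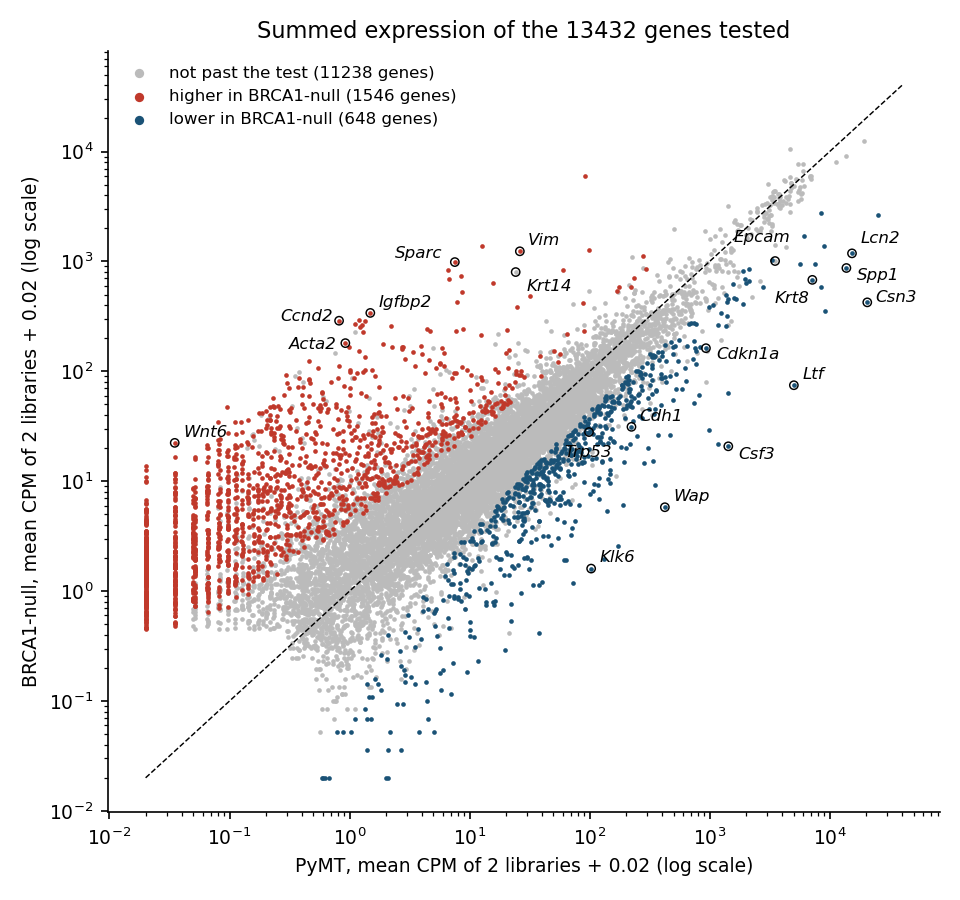
Mean CPM of the 2 PyMT libraries (x axis) against mean CPM of the 2 BRCA1-null libraries (y axis) for the 13432 genes tested, both on log scales with 0.02 CPM added so that genes at 0 can be drawn. Each point is a gene, the dashed line marks equal levels, and circles mark named genes. The 1546 genes higher in BRCA1-null tumors lie above the line and reach down to 0 CPM in PyMT, whereas the 648 lower genes lie mostly above 10 CPM in PyMT.

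Basal and myoepithelial genes rose in part in BRCA1-null tumors. Of 20 tested, 10 were higher (50.0%, beside 11.5% of all genes), none was lower and 10 did not pass, with a median log2 fold change of 4.80 beside 0.10 over all genes tested. Members differed in how far the BRCA1-null replicates lay apart. Acta2 (smooth muscle actin) was at 187 and 174 CPM in BRCA1-null against 0.818 and 0.987 CPM in PyMT tumors (log2 fold change 7.62, standard error 0.39, adjusted p = 0.00699), and Myl9, a myosin light chain, was at 41.4 and 59.9 CPM against 0.315 and 0.628 CPM. Pdpn (podoplanin, a basal membrane glycoprotein), Cav1 (caveolin) and Dkk3 (a secreted protein of the Dickkopf family) passed as well, with log2 fold changes of 6.32, 5.60 and 6.89. The contractile gene Tagln (transgelin, at 9.27 and 88.8 CPM in the BRCA1-null libraries) and the basal keratins were uneven between the BRCA1-null replicates. Krt14 reached 46.4 CPM and 1554 CPM in BRCA1-null replicates A and B and 13.8 and 34.6 CPM in PyMT tumors, and it did not pass (log2 fold change 5.04, standard error 1.60, adjusted p = 0.0881). Krt5 (21.8 and 96.5 CPM against 0.755 and 1.94 CPM) and Krt17 (108 and 938 CPM against 2.71 and 14.5 CPM) passed. Trp63, which encodes p63, was at 28.3 and 10.9 CPM against 0.818 and 2.18 CPM and was higher (adjusted p = 0.0318). Itgb4, Igfbp5 and Lamb3 lay on the other side, for example Itgb4 at 6.04 and 33.7 CPM against 75.4 and 93.4 CPM (adjusted p = 0.124). Without BRCA1-null replicate A the list had 16 genes higher and 2 lower, Krt14 among the higher (adjusted p = 0.00207).

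Mesenchymal and matrix genes showed the largest median difference of all 25 lists, 7.01 on the log2 scale. Of 30 tested, 24 were higher and none was lower, against 11.5% of all genes. Vim (vimentin, the intermediate filament of mesenchymal cells; ENSMUSG00000026728, chromosome 2 from 13573927 to 13582826) was at 839 and 1634 CPM in BRCA1-null and at 22.7 and 29.7 CPM in PyMT tumors (log2 fold change 5.56, adjusted p = 0.0097). Sparc, a matrix protein that binds collagen, was at 511 and 1462 CPM against 4.03 and 11.01 CPM. The basement membrane collagens Col4a1 (264 and 325 CPM against 1.13 and 1.23 CPM) and Col4a2 (213 and 295 CPM against 1.07 and 1.35 CPM) and the fibulin Fbln2 (127 and 206 CPM against 0.881 and 1.08 CPM) were close between replicates of both tumor types. The fibrillar collagens were not. Col3a1 reached 57.0 CPM and 523 CPM in BRCA1-null replicates A and B, against 0.189 and 2.48 CPM in PyMT, and Col1a2 at 73.5 and 458 CPM against 0.315 and 2.18 CPM. Bgn (biglycan) followed this pattern with 45.6 and 489 CPM against 0.503 and 1.67 CPM. Neither BRCA1-null library overlapped a PyMT library for any of these genes. Lack of overlap was part of a rule that named Col4a1, Col4a2, Col3a1 and Col1a2, so it is no support for them.

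The fibroblast markers given above moved with the matrix genes, since 8 of the 10 were higher in BRCA1-null tumors, among them Pdgfra, Dcn and Lum. Cells with UMIs of at least 2 of them made up 2.25% and 16.5% of BRCA1-null cells and 0% and 0.0557% of PyMT cells. Of the 7 pericyte markers 4 were higher, and 0.450% and 6.73% of BRCA1-null cells had at least 2 of them. With the sums restricted to cells with UMIs of at least 2 of the 4 epithelial markers, 24 of the matrix genes were higher and none was lower. That filter was applied at full depth, where it kept 206 of 245 and 1862 of 2078 BRCA1-null cells, so it removed few cells. Without BRCA1-null replicate A 27 were higher, and without BRCA1-null replicate B 25 were higher and 1 was lower.

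Transcription factors of EMT were higher as well. Of 10 tested, 8 were higher and none was lower (median log2 fold change 5.44). Zeb1 was at 32.2 and 16.2 CPM in BRCA1-null and at 0.315 and 0.179 CPM in PyMT tumors (log2 fold change 6.65, standard error 0.64, adjusted p = 0.00973), and Zeb2 at 9.86 and 24.1 CPM against 0.440 and 0.389 CPM. Both repress epithelial genes. Prrx1, a homeobox factor of mesenchyme, was at 9.71 and 47.6 CPM against 0.126 and 0.179 CPM, and Twist2 at 5.15 and 7.12 CPM against 0.0629 and 0.1496 CPM. Twist1 was detected in PyMT tumors too, at 7.43 and 8.31 CPM against 30.0 and 62.8 CPM, and its log2 fold change was 2.56. Snai1 was at 8.68 and 16.3 CPM against 9.69 and 14.1 CPM (adjusted p = 0.926) and Klf8 did not pass. Yap1, a coactivator of the Hippo pathway, was at 45.9 and 103 CPM against 28.2 and 23.4 CPM (adjusted p = 0.0756).

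Part of the luminal keratins and epithelial adhesion genes were lower in BRCA1-null tumors. Of 29 tested, 10 were lower (34.5%, beside 4.82% of all genes) and none was higher, with a median log2 fold change of -1.99. Krt7, a luminal keratin, was at 48.0 and 54.3 CPM in BRCA1-null and at 873 and 623 CPM in PyMT tumors (log2 fold change -3.87, standard error 0.36, adjusted p = 0.00973). Krt8 was at 292 and 1067 CPM against 6784 and 7557 CPM, and Krt18 at 348 and 1565 CPM against 7048 and 7911 CPM. Cdh1 (E-cadherin, the adhesion receptor of epithelia) was at 20.6 and 41.9 CPM against 257 and 189 CPM (log2 fold change -2.83). Pkp3 (a plakophilin of desmosomes), Marveld2 (tricellulin), Ocln (occludin), Jup (plakoglobin) and the protease inhibitors Spint1 and Spint2 were lower as well. Epcam reached 221 CPM and 1796 CPM in BRCA1-null replicates A and B, next to 3897 and 3124 CPM in PyMT tumors, and did not pass (adjusted p = 0.233). Cldn3 (110.2 and 729 CPM against 960.2 and 1243 CPM) and Cldn4 (59.6 and 248 CPM against 815 and 1089 CPM), tight junction claudins, were likewise lowest in BRCA1-null replicate A and did not pass (adjusted p = 0.302 and 0.0582). Without BRCA1-null replicate A 15 of the list were lower, and without BRCA1-null replicate B 25 were lower. In cells with UMIs of at least 2 epithelial markers, where Epcam, Krt8, Krt18 and Cdh1 were not read, 6 were lower.

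The promoters of 3 keratin genes and of Epcam are shown because they carry the E-box bound by Zeb and Snail factors. Each stretch runs from 250 bases before to 50 bases after the RefSeq start of the gene (GRCm38.p6), and capitals mark CACCTG or its complement CAGGTG, the letters searched on both strands. A match is a description and not a shown binding site.
Krt7, chr15:101412153-101412452, plus strand: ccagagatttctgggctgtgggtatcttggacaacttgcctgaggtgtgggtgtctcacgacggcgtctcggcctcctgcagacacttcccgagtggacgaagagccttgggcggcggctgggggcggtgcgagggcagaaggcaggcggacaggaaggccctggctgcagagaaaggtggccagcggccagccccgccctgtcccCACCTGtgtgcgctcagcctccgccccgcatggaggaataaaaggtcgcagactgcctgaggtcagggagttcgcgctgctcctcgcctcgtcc
Krt8, chr15:102004293-102004592, minus strand: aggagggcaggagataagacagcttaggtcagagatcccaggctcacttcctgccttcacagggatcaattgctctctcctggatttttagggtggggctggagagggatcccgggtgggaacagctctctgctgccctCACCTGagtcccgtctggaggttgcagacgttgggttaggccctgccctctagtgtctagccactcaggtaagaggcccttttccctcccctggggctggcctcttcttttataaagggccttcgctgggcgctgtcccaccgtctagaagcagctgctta
Krt18, chr15:102027966-102028265, plus strand: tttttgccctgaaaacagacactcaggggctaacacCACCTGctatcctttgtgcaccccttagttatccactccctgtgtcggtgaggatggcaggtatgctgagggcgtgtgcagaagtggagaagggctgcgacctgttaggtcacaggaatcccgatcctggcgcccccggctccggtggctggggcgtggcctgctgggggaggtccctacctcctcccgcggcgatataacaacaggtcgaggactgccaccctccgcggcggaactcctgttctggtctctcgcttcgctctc
Epcam, chr17:87635729-87636028, plus strand: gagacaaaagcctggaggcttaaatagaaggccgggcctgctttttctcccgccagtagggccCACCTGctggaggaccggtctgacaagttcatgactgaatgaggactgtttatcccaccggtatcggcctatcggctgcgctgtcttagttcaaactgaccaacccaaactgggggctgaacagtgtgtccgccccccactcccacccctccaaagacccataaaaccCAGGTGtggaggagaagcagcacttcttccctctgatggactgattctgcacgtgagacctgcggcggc
The motif began 44 bases before the start in Krt7, 111 in Krt8, 214 in Krt18, and 187 and 19 in Epcam. Over all 27025 genes with a promoter, 22.6% held it. Only 18 of the 29 luminal keratin and adhesion genes had a promoter in the table, too few for a comparison of the list with other genes, which was void. These 4 genes were picked after the match was seen.

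**Figure D2:**
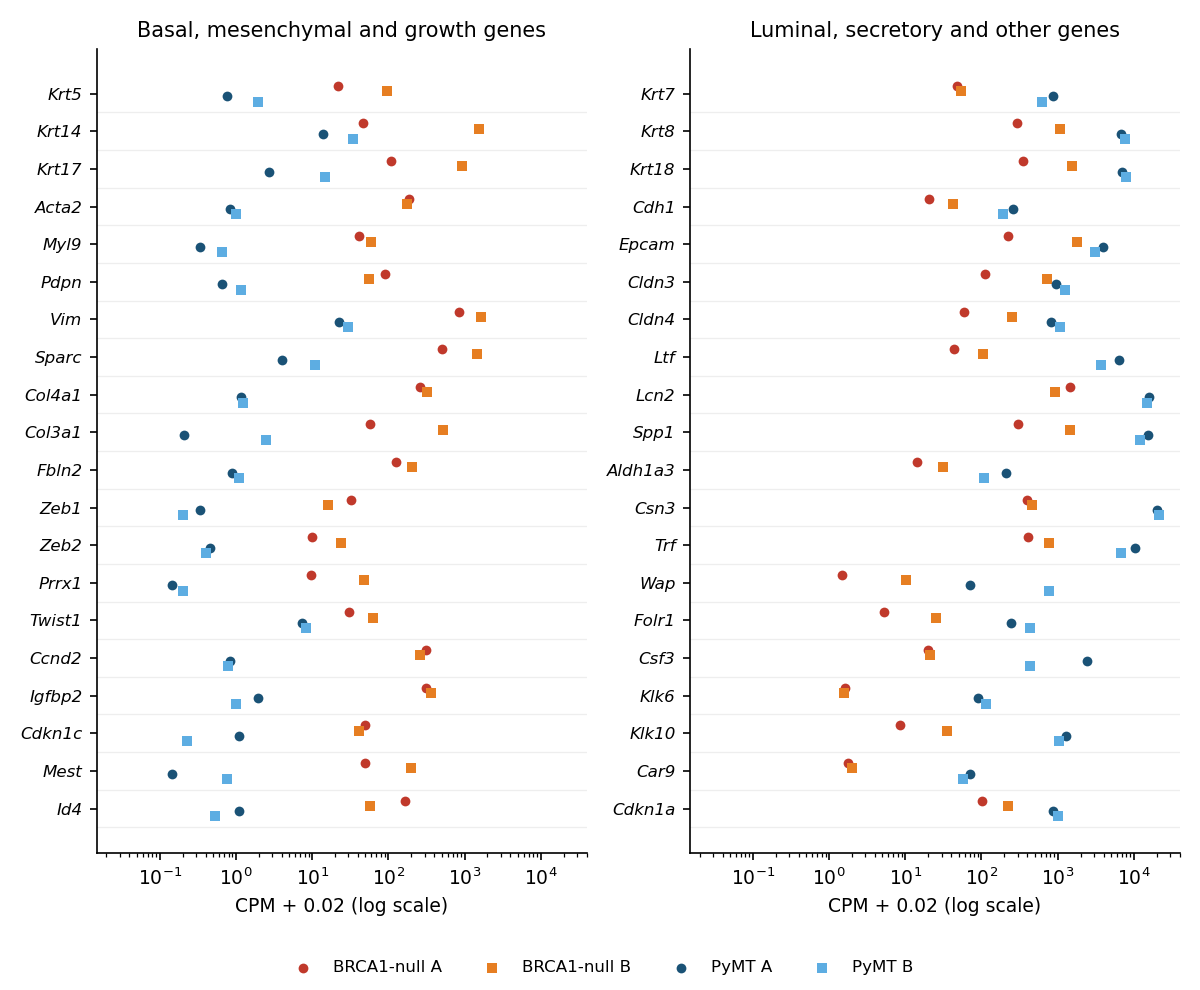
CPM (plus 0.02, log scale) of 40 genes in each of the 4 libraries, with BRCA1-null tumors in red and orange and PyMT tumors in blue, circles for replicate A and squares for replicate B. Acta2, Ccnd2, Csn3 and Klk6 show replicates side by side and tumor types far apart, whereas Krt14, Col3a1, Epcam and Cldn3 spread over a wide range within BRCA1-null tumors. Acta2, Ccnd2, Csn3 and Klk6 were picked for large called changes without overlap of libraries, so their separation is no support.

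To see whether epithelial and mesenchymal transcripts lay in the same cells, pairs of genes were counted in cells thinned to 3000 UMIs. A cell held both Epcam and Vim in 16.7% of cases in BRCA1-null replicate A (12.01% to 22.2%, the 95% interval by the exact Clopper-Pearson method) and in 52.5% of BRCA1-null replicate B (50.2% to 54.8%), against 5.19% and 5.57% in PyMT tumors. Counted singly, Vim had a UMI in 70.7% and 77.4% of BRCA1-null cells and in 5.30% and 5.57% of PyMT cells. Epcam had a UMI in 31.1% and 74.6% of BRCA1-null cells. Whether the pairs were more or less frequent than the shares of the single genes would give was not tested. Nearly all PyMT cells had an Epcam UMI (99.2% and 99.5%), so that each PyMT cell with Vim was almost always also a cell with Epcam. Krt8 and Krt14 were found together in 3.15% and 41.0% of BRCA1-null cells and in 1.68% and 5.13% of PyMT cells, and Krt18 and Sparc in 14.9% and 44.7% against 0.811% and 1.51%. Krt8 with Col3a1 was rarer, at 1.802% and 14.99% against 0.0541% and 0.613%. Replicate B had the larger share of every pair among BRCA1-null tumors. Intervals cover counting error only, and the part that free RNA in droplets and doublets play in these shares was not tested.

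**Figure D3:**
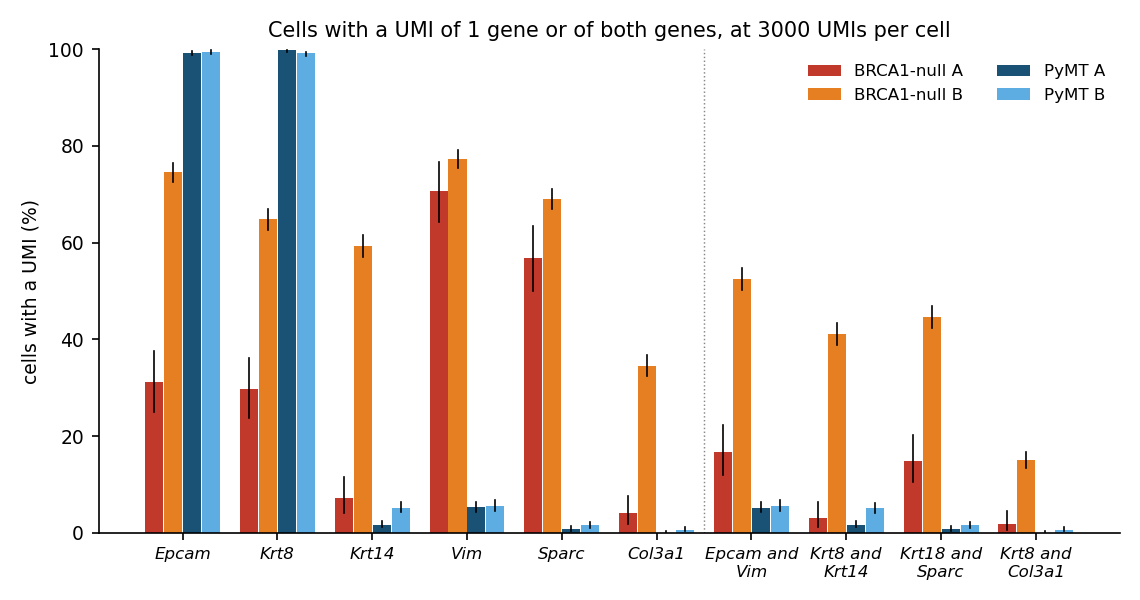
Percent of cells in which a gene (left of the dotted line) or both genes of a pair (right) had a UMI, after thinning to 3000 UMIs per cell, in the 4 libraries. Lines are 95% exact binomial intervals. Vim and Sparc are found in most cells of both BRCA1-null tumors, while Krt14, Col3a1 and all 4 pairs are found mainly in BRCA1-null replicate B.

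Some genes of luminal progenitors, the precursors of secretory alveolar cells, were lower in BRCA1-null tumors. Of 13 tested, 5 were lower (38.5%, beside 4.82% of all genes) and none was higher (median log2 fold change -1.81). Ltf (lactotransferrin, an iron-binding protein of milk; ENSMUSG00000032496, chromosome 9 from 111019271 to 111042767) was at 43.3 and 106 CPM against 6371 and 3693 CPM (log2 fold change -6.07, standard error 0.66, adjusted p = 0.0112). Lcn2 (lipocalin 2, which sequesters bacterial siderophores) was at 1436 and 933 CPM against 15809 and 14879 CPM, and Spp1 (osteopontin) at 299.5 and 1443 CPM against 15537 and 12027 CPM. Wfdc18 and Aldh1a3, a retinaldehyde dehydrogenase that marks luminal progenitors, also fell (log2 fold changes -2.68 and -2.81). Anxa1 was at 159 and 798 CPM against 2719 and 1774 CPM and did not pass (adjusted p = 0.108), nor did Kit, Elf5 or Sox10.

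Milk and alveolar genes gave 6 lower and 1 higher of 20 tested (median log2 fold change -2.46). Beside Csn3 these were Trf (transferrin, at 403 and 769 CPM against 10215 and 6754 CPM), Folr1 (a folate receptor, at 5.30 and 25.3 CPM against 241 and 439.6 CPM), Xdh (xanthine dehydrogenase, needed for milk fat secretion), Muc15 and Wap. Wap (whey acidic protein) was uneven between PyMT tumors, at 70.5 and 777 CPM against 1.47 and 10.1 CPM in BRCA1-null, and lost its call without BRCA1-null replicate A (adjusted p = 0.0572). For 2 other caseins the tumor types overlapped. Csn2 was at 30.5 and 437 CPM against 23.1 and 1696 CPM, and Csn1s2a at 38.4 and 325 CPM against 40.0 and 288 CPM. Mfge8 was at 342 and 481 CPM against 726 and 681 CPM (adjusted p = 0.157). Cited4, a transcriptional cofactor, was higher (32.1 and 45.4 CPM against 3.84 and 11.1 CPM). No gene of the list was higher in cells with at least 2 epithelial markers or without BRCA1-null replicate B.

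Ltf, Lcn2 and Trf were also the 3 lower members of 12 iron handling genes, none of which was higher, with a median of -0.01. The ferritin gene Fth1 was at 14799 and 6251 CPM against 4904 and 4391 CPM (adjusted p = 0.153). Of 9 tissue kallikreins tested, secreted serine proteases clustered on chromosome 7, 4 were lower and none was higher. Klk10 was at 8.39 and 35.3 CPM against 1290.4 and 1037 CPM (log2 fold change -5.72, standard error 0.79), and Klk6 at 1.62 and 1.55 CPM against 89.7 and 116 CPM. Klk12 had no UMI in either BRCA1-null library and 2.64 and 1.38 CPM in PyMT, which is at least 25.3-fold lower with 3 UMIs over both libraries taken as the limit. Klk8 was the other way round in a single library, at 49.3 CPM in BRCA1-null replicate B and 0.442, 13.3 and 11.2 CPM elsewhere, and did not pass.

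Hormone-sensing luminal cells are marked by the estrogen and progesterone receptors. Esr1, the estrogen receptor, was at 1.51 to 2.42 CPM in all 4 libraries. Pgr, the progesterone receptor, was higher but low, at 2.65 and 2.58 CPM against 0.378 and 0.209 CPM. Of 11 genes tested 5 were higher, among them Cited1 (56.1 and 14.5 CPM against 3.46 and 2.21 CPM), and Gata3, a factor of the luminal lineage, was lower at 8.39 and 24.5 CPM against 101 and 80.2 CPM. Among the 11 ErbB receptors and ligands tested, Erbb3 fell from 38.9 and 37.4 CPM in PyMT to 9.57 and 13.7 CPM in BRCA1-null tumors (log2 fold change -1.71, adjusted p = 0.0331). Erbb2 was at 2.65 and 9.73 CPM against 17.2 and 8.97 CPM (adjusted p = 0.349). The ligand gene Ereg (epiregulin) had 1 UMI in all PyMT cells and was at 6.18 and 9.86 CPM in BRCA1-null tumors, while Areg and Hbegf did not pass. The list median was -1.03. With the libraries thinned to the smallest total, Pgr and Erbb3 were not called (adjusted p = 0.132 and 0.0551).

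Replication and mitosis genes were mostly above PyMT in BRCA1-null tumors but few passed. Of 33 tested, 7 were higher and none was lower (median log2 fold change 2.21). Those were the replicative helicase subunits Mcm2, Mcm3, Mcm5, Mcm6 and Mcm7, the chromatin factor Uhrf1 and the spindle checkpoint kinase Bub1b. Mcm2 was at 23.8 and 18.5 CPM against 2.89 and 4.16 CPM (log2 fold change 2.57, standard error 0.41, adjusted p = 0.0201), and Mcm7 at 50.3 and 49.3 CPM against 12.1 and 15.4 CPM. The mitotic genes varied between replicates in opposite directions in the 2 tumor types. Cdk1 reached 146 CPM and 32.3 CPM in BRCA1-null replicates A and B, but at 4.78 and 18.0 CPM in PyMT replicates A and B (adjusted p = 0.0869), and Ccnb1 and Top2a had the same order. Mki67 was at 30.5 and 19.4 CPM against 3.71 and 18.2 CPM (adjusted p = 0.332). With a replicate block, which pairs the libraries of a letter, 14 of the list were higher, and with DESeq2 25 were. Without BRCA1-null replicate B 20 were higher.

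Among D cyclins, their partners and G1 inhibitors, 5 of 18 were higher and 2 lower (median log2 fold change 1.49). Ccnd2 stood alone among the D cyclins, since Ccnd1 was at 178 and 97.1 CPM against 169.7 and 128 CPM and Ccnd3 at 31.6 and 56.4 CPM against 37.9 and 49.9 CPM (adjusted p = 0.867 and 0.991). Cdk6, a kinase partner of D cyclins, was higher (24.0 and 44.8 CPM against 8.87 and 7.57 CPM). The kinase inhibitors moved in both directions. Cdkn1c (p57) was at 49.0 and 41.8 CPM against 1.07 and 0.209 CPM (log2 fold change 6.26), Cdkn2d (p19) and Cdkn1b (p27) were higher too, and Rb1 and Cdkn1a (p21, a target of p53) were lower, Cdkn1a at 102 and 222 CPM against 859 and 1004 CPM (log2 fold change -2.52, standard error 0.46, adjusted p = 0.0277).

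Of 21 p53 target genes, 5 were lower and 3 were higher (median log2 fold change -0.76). Ccng1 was at 12.7 and 10.5 CPM against 49.9 and 53.2 CPM (log2 fold change -2.16, adjusted p = 0.018), and Eda2r, Sesn2 and Psrc1 were lower beside Cdkn1a and Ccng1. The death receptor gene Fas was higher, at 19.6 and 21.5 CPM against 2.27 and 2.75 CPM (log2 fold change 3.03), as were Sesn1 and Pmaip1. Mdm2, which encodes the ligase that degrades p53, was at 64.8 and 37.4 CPM against 52.9 and 65.5 CPM (adjusted p = 0.727), and Bax at 108 and 101 CPM against 188 and 193 CPM (adjusted p = 0.0894). Of 25 genes of homologous recombination and the damage response, 2 were higher (8%, below the 11.5% of all genes) and none was lower, with a median of 1.47. These were Bard1, the partner of BRCA1, and Mre11a, a nuclease of the break-sensing complex. Bard1 was at 4.27 and 4.41 CPM against 0.692 and 1.17 CPM (adjusted p = 0.0491) and Mre11a at 13.5 and 43.7 CPM against 4.85 and 5.26 CPM (adjusted p = 0.0476). Neither passed when the cell filters of the study were used (adjusted p = 0.0506 and 0.0508), and none of the list did with the cells that had immune, endothelial or erythroid markers left out. Parp1 was at 41.2 and 38.8 CPM against 8.75 and 16.7 CPM (adjusted p = 0.0516). All 25 genes of the list had log2 fold changes above 0, from 0.05 to 2.79, beside 7194 of all 13432 genes. DESeq2 called 7 of the list higher.

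Secreted factors that attract leukocytes differed by kind. Of 17 chemokines and colony-stimulating factors tested, 8 were higher in BRCA1-null tumors and 1, Csf3, was lower (median log2 fold change 2.87). Cxcl12, the ligand of Cxcr4, was at 33.9 and 38.5 CPM against 0.440 and 0.239 CPM (log2 fold change 6.79, standard error 0.51, adjusted p = 0.00779). Cxcl10, which is induced by interferon, was at 83.3 and 89.5 CPM against 1.82 and 0.329 CPM, and the monocyte attractant Ccl2 at 174 and 123 CPM against 14.98 and 25.5 CPM. Ccl5, Ccl7, Cxcl9, Cxcl3 and Il33 were higher too. The neutrophil attractants Cxcl1 and Cxcl2 varied between PyMT tumors, Cxcl1 at 705 and 201 CPM there against 155 and 295 CPM, and did not pass. Of the 14 immune cell markers, Lyz2, C1qa, C1qb, Tyrobp and Fcer1g were higher in BRCA1-null tumors and S100a8 was lower, while Ptprc did not pass and Cd3e and Cd79a were too low to be tested, and at most 4.50% of cells of a library had 2 or more of the 14 at 3000 UMIs. Cells with at least 2 markers of immune, of endothelial or of erythroid cells at full depth made up 20.4% and 5.58% of BRCA1-null and 2.05% and 4.13% of PyMT cells. With them left out, 8 chemokines were higher and 1 was lower.

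NF-kB and innate sensing genes gave 4 higher (22.2%) and 2 lower (11.1%) of 18, with a median log2 fold change of -0.51. With the cells that had immune, endothelial or erythroid markers left out, 2 were higher and 2 lower. Icam1, the adhesion molecule for leukocytes, was at 118 and 736 CPM against 8.94 and 6.82 CPM (log2 fold change 5.76), and Tlr2, a receptor for bacterial lipoproteins, at 12.2 and 19.2 CPM against 48.9 and 52.9 CPM. Genes of MHC class I and interferon gave 1 higher and 3 lower of 20 (median -0.67). The class I heavy chains H2-D1 (908 and 1156 CPM against 3069 and 3558 CPM) and H2-K1 (529.9 and 789.6 CPM against 1681 and 2591 CPM) and the interferon factor Irf7 (21.3 and 49.9 CPM against 174 and 287 CPM) were lower, and Irf1 was higher. B2m, the light chain of class I, was at 979 and 1726 CPM against 3537 and 5058 CPM and lay at the threshold (adjusted p = 0.0504).

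Imprinted genes, which are expressed from the allele of only 1 parent and many of which control fetal growth, were higher in BRCA1-null tumors. Of 18 tested, 12 were higher and none was lower, with a median log2 fold change of 6.37, or 5.49 with genes that had no UMI in PyMT set at the lowest fold their counts allow. Mest was at 48.7 and 197 CPM against 0.126 and 0.748 CPM (log2 fold change 7.97 with a standard error of 1.11, adjusted p = 0.0165). The noncoding RNA Meg3 was at 43.6 and 76.5 CPM against 0.0629 and 0.808 CPM, and Dlk1, its neighbor in the same imprinted domain, at 9.42 and 85.9 CPM against 0 and 0.1496 CPM. Igf2 had no UMI in either PyMT library and was at 1.18 and 5.74 CPM in BRCA1-null tumors, at least 56.8-fold higher with 3 UMIs over both libraries taken as the limit. Igf2r, Gnas and Snrpn, which were well expressed in both tumor types, did not pass. Among the 12 genes that rose, the mean in PyMT tumors was at most 1.74 CPM, that of Impact.

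Members of the insulin-like growth factor (IGF) system were higher in 9 of 15 cases and lower in 1 (median log2 fold change 4.57). The ligand Igf1 was at 5.00 and 5.80 CPM against 0.0629 and 0.269 CPM, and the receptor Igf1r at 35.8 and 14.5 CPM against 1.26 and 1.94 CPM (log2 fold change 3.94). Beside Igfbp2, the binding proteins Igfbp3, Igfbp4, Igfbp6 and Igfbp7 were higher, Igfbp4 with 101 and 170.4 CPM against 1.20 and 1.47 CPM. Igfbp5 had the opposite order, at 97.0 and 481 CPM against 1284 and 1737 CPM, and did not pass (adjusted p = 0.0889). Igfals, which stabilizes circulating IGF complexes, was the lower member (0.589 and 0.419 CPM against 9.06 and 11.04 CPM).

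Wnt pathway genes gave 12 higher and 2 lower of 24 (median log2 fold change 3.08). The ligands split, since Wnt6 (15.6 and 29.0 CPM, with 1 UMI in all PyMT cells), Wnt5a and Wnt10a were higher, whereas Wnt7b (2.50 and 3.87 CPM against 71.9 and 18.1 CPM) and Wnt5b (4.12 and 19.04 CPM against 193 and 101 CPM) were lower. The receptor Fzd7 was at 23.1 and 23.7 CPM against 2.39 and 2.93 CPM (log2 fold change 3.13, standard error 0.37, adjusted p = 0.0131). Targets and feedback inhibitors of the pathway, Axin2, Nkd1 and Notum, were higher. The inhibitor gene Wif1 reached 288 CPM and 6.25 CPM in BRCA1-null replicates A and B, and did not pass (adjusted p = 0.0751). In the Notch pathway the ligands Jag1 (14.9 and 15.8 CPM against 0.818 and 1.35 CPM) and Jag2, the glycosyltransferase Lfng and the target Heyl were higher among 15 tested, none was lower, and Notch1, Notch2, Notch3 and Notch4 did not pass (median 0.32).

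In the TGF-beta and BMP pathways, 6 of 22 were higher and none was lower (median log2 fold change 1.15). Bmp7 was at 97.6 and 23.1 CPM against 0.315 and 0.209 CPM (log2 fold change 7.87). Of the Id genes, targets of BMP signals that block basic helix-loop-helix factors, Id3 was at 203 and 286 CPM against 4.78 and 4.01 CPM (log2 fold change 5.80, standard error 0.39, adjusted p = 0.00699), Id4 at 168 and 58.0 CPM against 1.07 and 0.508 CPM, and Id1 at 45.9 and 83.0 CPM against 13.2 and 17.0 CPM. Id2 did not pass. Without BRCA1-null replicate A 12 members were higher. Retinoic acid genes moved in both directions, 6 higher and 2 lower of 14. Aldh1a1 (21.6 and 34.0 CPM against 0.126 and 0.0897 CPM) rose where Aldh1a3, which makes retinoic acid as well, fell, and the binding protein Crabp1 (40.2 and 60.9 CPM against 0.252 and 0.508 CPM) rose where Crabp2 (8.54 and 21.4 CPM against 159.8 and 224 CPM) fell. Stra6, a retinol transporter, had no UMI in PyMT tumors and 3.97 and 4.45 CPM in BRCA1-null tumors, at least 69.2-fold higher with the same limit of 3 UMIs over both libraries. The degrading enzymes Cyp26a1 and Cyp26b1 were higher.

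Glycolysis and hypoxia genes gave 7 lower and 2 higher of 24 (median log2 fold change -0.67). Car9, a membrane carbonic anhydrase induced by low oxygen, was at 1.77 and 2.00 CPM against 70.9 and 56.4 CPM (log2 fold change -5.06 with a standard error of 0.38, adjusted p = 0.00794). The oxygen sensor Egln3 (13.8 and 7.73 CPM against 142 and 99.3 CPM), the glucose transporter Slc2a1 (36.2 and 57.9 CPM against 209 and 242 CPM) and the enzymes Aldoa, Aldoc, Ldha and Pfkp were lower. Slc16a3, which exports lactate, was higher at 6.18 and 8.76 CPM against 0.692 and 0.688 CPM. Gapdh was at 2204 and 2521 CPM against 1784 and 2752 CPM (adjusted p = 0.926). Immediate early genes, which also respond to tissue dissociation, gave 1 higher (Egr2) and 1 lower (Ier3) of 20, with a median of 0.11 beside 0.10 over all genes. Fos was at 186 and 875 CPM against 154 and 189 CPM (adjusted p = 0.178).

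**Figure D4:**
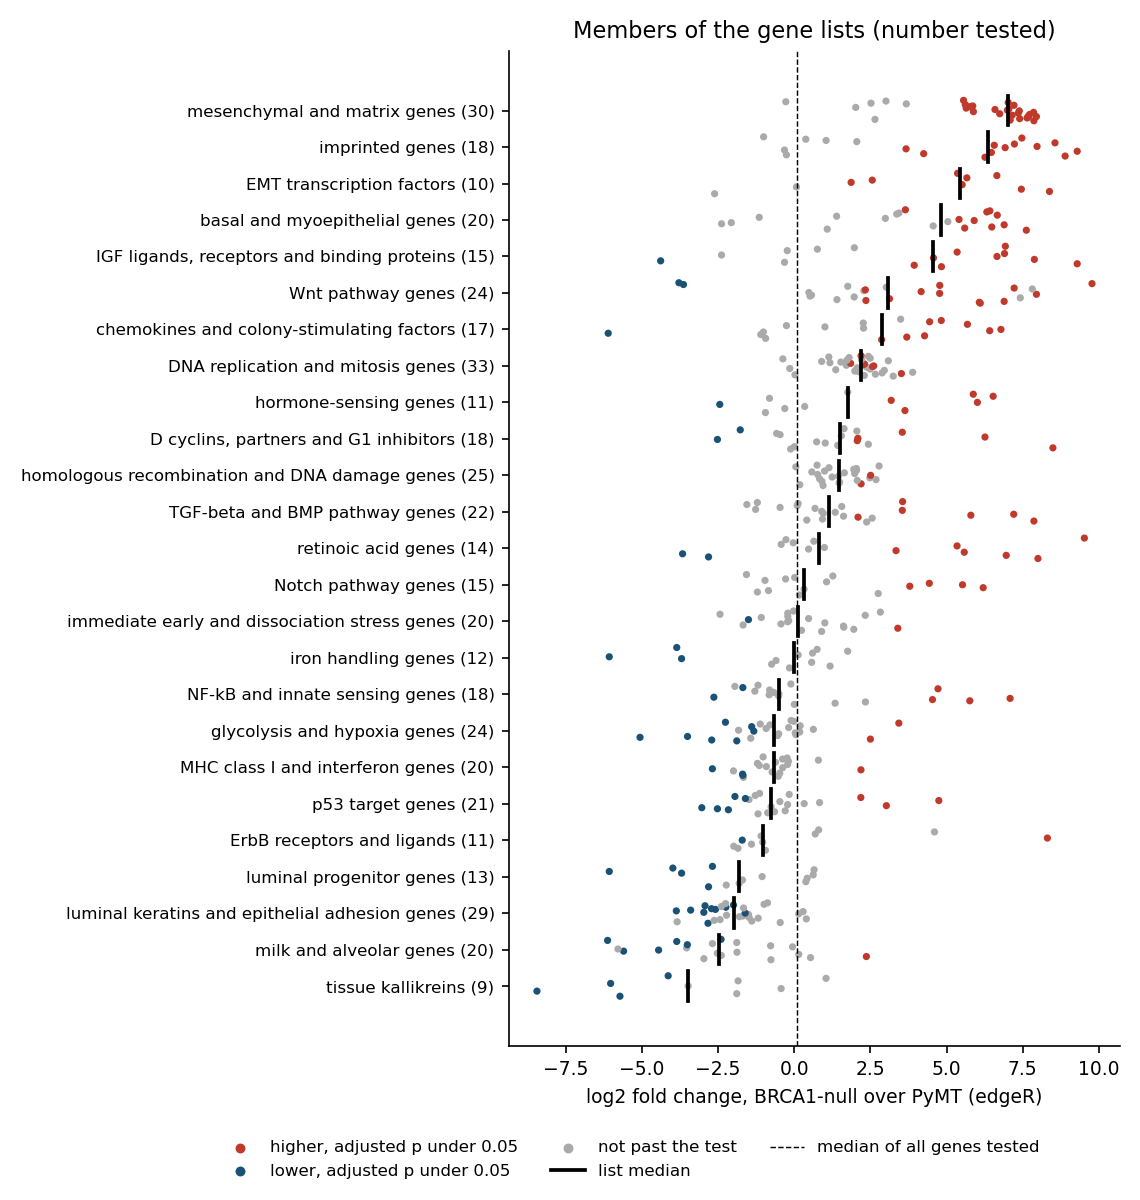
Log2 fold change of BRCA1-null over PyMT tumors (x axis) for the tested members of the 25 lists, ordered by list median (black bars), with higher genes in red, lower genes in blue and the others in gray. The dashed line is the median of all 13432 genes, 0.10, and fitted values of genes with no or few UMIs in a tumor type depend on a small count added by the model. Mesenchymal and matrix genes lie farthest to the right with a median of 7.01, and tissue kallikreins farthest to the left with -3.48.

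The 2 spontaneous BRCA1-null tumors differed more from each other than the 2 transplants of the PyMT line did. Over the 6974 genes with a mean of at least 10 CPM, replicates B and A differed by over 2-fold in 1498 genes (21.5%) of BRCA1-null and in 365 genes (5.23%) of PyMT tumors. The gene groups took part unequally. For members of the same level, the median log2 ratio of replicate B to A in BRCA1-null tumors was 2.42 for mesenchymal and matrix genes, 2.31 for basal and myoepithelial genes and 1.76 for luminal keratins and adhesion genes, while it was -0.59 for replication and mitosis genes. In PyMT tumors it was 0.62, 0.47, -0.17 and 1.28. BRCA1-null replicate B was thus above replicate A for basal, mesenchymal and luminal genes together. With 2 tumors of each kind and batches that follow the replicate letter, the difference between BRCA1-null tumors cannot be told apart from batch. The PyMT tumors also shared the single source line FF99WT, and BRCA1-null replicate A had 245 cells beside 2078 in replicate B. The larger spread can therefore not be assigned to the BRCA1-null model.

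**Figure D5:**
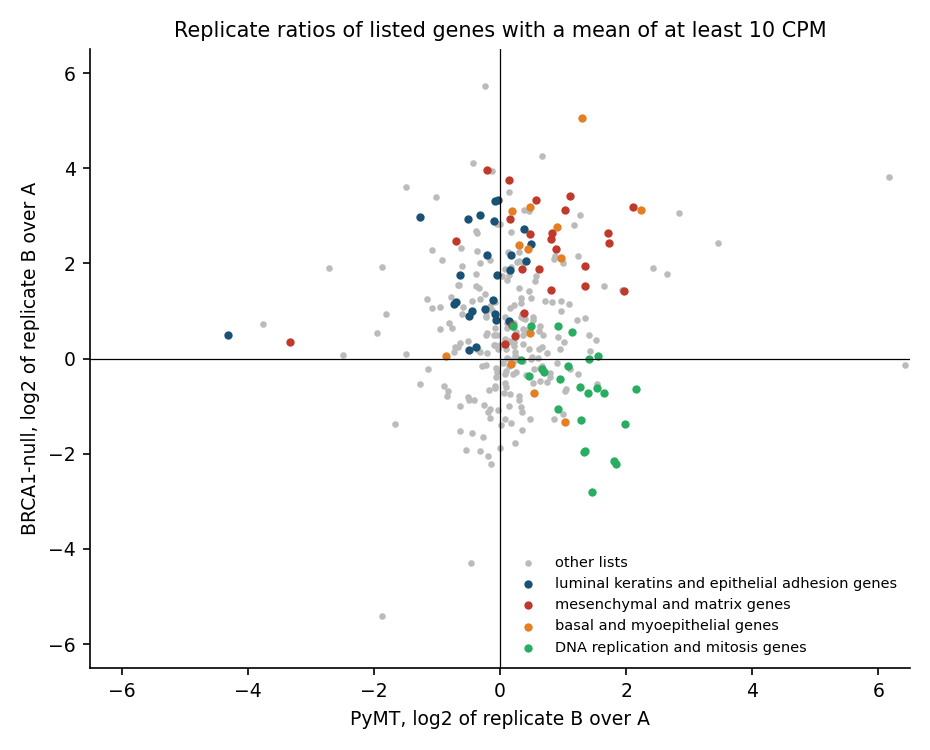
Log2 ratio of replicate B to replicate A in PyMT tumors (x axis) and in BRCA1-null tumors (y axis) for the 315 listed genes with a mean of at least 10 CPM. Points in color are 4 of the lists and gray points the other 21. Matrix, basal and luminal genes lie mostly above 0 on the y axis, and replication and mitosis genes mostly to the right of 0 on the x axis.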

How the data were processed

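Tumor cells were profiled with droplet 3' chemistry, 1 library per tumor. Per the labels and file headers, the authors aligned reads to mm10 with STAR inside Cell Ranger and deposited UMI counts per gene and cell. The processing notes give Cell Ranger 2.2.0 for replicates A and 3.0.2 for replicates B, while all matrix headers give 3.0.2. The study names the replicate letter as a sequencing batch.

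Counts of cells with at least 1000 UMIs, 500 genes and under 20% mitochondrial UMIs were summed per library, from 5578911 to 37693300 UMIs. Genes passing the expression filter of edgeR 4.0.16 were fitted with TMM scaling and its quasi-likelihood test (R 4.3.3), with 2 residual degrees of freedom and Benjamini-Hochberg adjustment over 13432 genes at 0.05, and the script was tested on simulated data. DESeq2 1.42.0, a replicate block, other cell filters and left-out libraries were alternatives. Log2 fold changes are BRCA1-null over PyMT. The p-values measure only the spread between these tumors. Both PyMT tumors were transplants of the single line FF99WT, so variation between PyMT source tumors is not covered. Cells were thinned to 3000 UMIs for shares of cells. Positions are from GENCODE M21. Named genes were the 10 largest changes per direction among called genes with at least 50 CPM in both libraries of the higher tumor type, at least 10 UMIs in the other and no overlap of libraries, up to 5 per direction with fewer UMIs, up to 4 members of each list by lowest adjusted p, the genes of the models and sort, and genes the study names for these tumors. Other list members named were chosen after their values were seen. Members and lists were chosen with earlier results of these data known. The result of 1 marker list is not reported here.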

Additional observations from a re-analysis of the deposited data

How the results depend on the processing

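The counts of 1546 higher and 648 lower genes rose to 2615 and 1229 with no filter on low counts. DESeq2 called 2138 higher and 1156 lower genes. Leaving out 1 library at a time gave from 0 to 2071 higher and from 0 to 1523 lower genes, the 0 being without PyMT replicate A. With a library left out, the spread between replicates came from the other tumor type alone. No other cause of this range was tested. With libraries thinned to the smallest total 1084 genes were higher and 515 lower. With the replicate block 1825 genes were higher and 866 lower. Deviations of replicates B and A correlated little between tumor types across genes (r = 0.0523). The main fit did not pair the tumors by letter, and an effect of batch was not tested. No called gene was called in the opposite direction under any alternative run. With 2 tumors a group, and 245 cells in BRCA1-null replicate A, genes that vary between BRCA1-null tumors had little power.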
